A study of Mus musculus with 12 samples.

Results

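The genes described here are the immunoglobulin genes of mouse bone marrow (BM) LSKs, chosen by their raw counts as the genes annotated as immunoglobulin V, D, J or C genes that had at least 10 counts in at least 1 of 12 RNA-seq libraries. This rule took 110 genes of 53465 in the count table and of 264 immunoglobulin V, D, J and C genes. The members were 97 of 218 V genes (52 heavy, 43 kappa and 2 lambda), 3 of 14 J genes, 10 of 13 C genes and 0 of 19 D genes. Because counts chose them, their presence is a description and not a result. Just inside the threshold were Ighv1-12, with a highest count of 10, and Ighv1-56, with 11. Just outside were Iglc3, Ighv1-5, Ighv1-80 and Ighv5-17, each with a highest count of 9, and Ighe, the constant gene of IgE, with 8.

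LSKs are lineage-negative, Sca-1+ c-Kit+ cells, the BM fraction that holds the hematopoietic stem cells (HSCs) and multipotent progenitors. The libraries came from sorted LSKs of Tespa1+/+ littermates and of Tespa1-/- mice, which carry a germline targeted Tespa1 allele backcrossed to C57BL/6. Both genotypes were taken untreated or at day 9 after 1 injection of 5-fluorouracil (5-FU), a drug that kills cycling cells, which gives 4 groups of 3 libraries each. The study's mice were male and 8 to 10 weeks old, and the lineage cocktail used before the sort included B220, a B-cell surface protein. Nothing in the sources used here says whether the 3 libraries of a group came from separate mice or from a pool, so every p-value measures only the spread between these libraries. Library totals ran from 22118154 to 28275079 counts.

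An immunoglobulin is built of paired heavy and light chains. In B-lineage cells the RAG recombinase joins 1 V, 1 J and, for the heavy chain, 1 D segment into a variable exon, which is spliced to a constant (C) gene, so each B-cell clone transcribes its own V gene at a high level and the C gene is shared between clones. The first heavy C gene is Ighm (IgM), and class switching replaces it with an IgG, IgE or IgA gene further along the locus. C genes can also be transcribed without a joined V gene, as germline transcripts, and Ighm is transcribed in this way in early lymphoid progenitors. Some V genes mark known receptors. Ighv11-2 with Igkv14-126, and Ighv12-3 with Igkv4-91, are the heavy and light chain pairs of phosphatidylcholine-binding receptors of B-1 cells, which make natural antibody.

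The sequences of 6 V genes that the results turn on are printed as the last 300 bases of the spliced coding sequence, 5′ to 3′, from the GENCODE M21 annotation of GRCm38. Ighv11-2 (chromosome 12, 114048241 to 114048812, minus strand) and Igkv14-126 (chromosome 6, 67896172 to 67896642, plus strand) are a heavy and kappa pair of the B-1 receptors and led their chains in the untreated groups. The other 4 had the highest total count among the V genes found in all libraries of only 1 group. They were Igkv4-51 for untreated Tespa1+/+ LSKs (chromosome 6, 69681406 to 69681975, minus strand), Igkv4-61 for untreated Tespa1-/- LSKs (chromosome 6, 69416893 to 69417455, minus strand), Igkv4-74 for 5-FU-treated Tespa1+/+ LSKs (chromosome 6, 69184826 to 69185397, minus strand) and Ighv2-9-1 for 5-FU-treated Tespa1-/- LSKs (chromosome 12, 113769850 to 113770302, minus strand). Capitals mark the bases that differ from, or have no counterpart in, the most similar other V gene, which is Ighv11-1, Igkv14-111, Igkv4-58, Igkv4-54, Igkv4-61 and Ighv2-6-8, in the order of the lines.
Ighv11-2: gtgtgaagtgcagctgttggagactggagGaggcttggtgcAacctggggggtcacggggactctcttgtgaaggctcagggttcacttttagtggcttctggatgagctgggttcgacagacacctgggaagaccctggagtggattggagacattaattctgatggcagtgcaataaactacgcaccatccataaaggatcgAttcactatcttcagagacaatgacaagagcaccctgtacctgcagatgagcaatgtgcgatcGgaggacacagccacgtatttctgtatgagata
Igkv14-126: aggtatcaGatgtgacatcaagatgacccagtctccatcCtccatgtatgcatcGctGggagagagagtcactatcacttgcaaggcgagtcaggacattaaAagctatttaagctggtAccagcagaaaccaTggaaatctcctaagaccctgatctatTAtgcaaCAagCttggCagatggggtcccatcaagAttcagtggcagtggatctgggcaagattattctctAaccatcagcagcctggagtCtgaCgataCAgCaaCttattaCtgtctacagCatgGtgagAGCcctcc
Igkv4-51: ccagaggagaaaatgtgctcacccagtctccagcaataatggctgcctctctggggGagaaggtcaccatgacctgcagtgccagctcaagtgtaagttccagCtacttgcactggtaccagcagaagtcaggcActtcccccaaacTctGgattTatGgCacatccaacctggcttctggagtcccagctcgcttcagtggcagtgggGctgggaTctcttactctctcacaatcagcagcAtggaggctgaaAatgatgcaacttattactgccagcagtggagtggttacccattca
Igkv4-61: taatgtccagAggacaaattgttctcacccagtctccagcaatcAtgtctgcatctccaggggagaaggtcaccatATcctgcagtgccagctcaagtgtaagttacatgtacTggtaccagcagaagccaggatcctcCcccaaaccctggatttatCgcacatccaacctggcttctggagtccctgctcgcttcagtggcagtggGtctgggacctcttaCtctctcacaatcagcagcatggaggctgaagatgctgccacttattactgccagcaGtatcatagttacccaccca
Igkv4-74: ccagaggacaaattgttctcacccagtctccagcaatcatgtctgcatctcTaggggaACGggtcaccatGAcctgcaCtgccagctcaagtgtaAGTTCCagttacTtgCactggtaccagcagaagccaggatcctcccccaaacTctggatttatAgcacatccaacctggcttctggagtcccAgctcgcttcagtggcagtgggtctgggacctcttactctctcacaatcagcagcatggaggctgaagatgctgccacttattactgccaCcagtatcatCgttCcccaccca
Ighv2-9-1: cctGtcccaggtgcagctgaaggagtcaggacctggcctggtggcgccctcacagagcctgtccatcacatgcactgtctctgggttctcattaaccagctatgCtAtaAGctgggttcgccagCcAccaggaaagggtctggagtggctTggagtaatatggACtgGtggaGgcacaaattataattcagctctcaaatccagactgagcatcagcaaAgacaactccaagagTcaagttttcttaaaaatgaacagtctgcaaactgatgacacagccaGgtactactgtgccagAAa

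Ighv11-2 differs from Ighv11-1 at 4 of 353 bases, an identity of 98.9%, all 4 of them in the printed bases, and Ighv11-1 had at most 3 counts in any library. Igkv14-126 is 91.5% identical to Igkv14-111. For Igkv4-51, Igkv4-61, Igkv4-74 and Ighv2-9-1 the identity to the nearest V gene was 96.4%, 96.9%, 95.7% and 94.6%. Over the 97 V members the identity to the nearest V gene had a median of 95.7% (range 77.5 to 99.7%), and 55 of 97 had a neighbour at least 95% identical. Reads of near-identical V genes can be placed on one another, so the count of a single V gene is uncertain.

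The level of all 110 members together is given as CPM (counts scaled to a common library size by TMM, a normalization that sets the bulk of genes equal between libraries). It was 404 ± 4.18 CPM (SD, n = 3) in untreated Tespa1+/+ LSKs, 275 ± 6.65 in untreated Tespa1-/- LSKs, 282 ± 11.3 in 5-FU-treated Tespa1+/+ LSKs and 370 ± 12.1 in 5-FU-treated Tespa1-/- LSKs. Ighm alone held most of this. In bulk LSKs, fewer cells that transcribe these genes and less RNA per cell cannot be told apart.

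Ighm had 7719, 5915 and 5807 counts in untreated Tespa1+/+ LSKs and 4645, 4510 and 4816 in untreated Tespa1-/- LSKs. After 5-FU it had 5849, 5244 and 5168 counts in Tespa1+/+ and 6008, 5419 and 4722 in Tespa1-/- LSKs. Scaled for depth, the untreated Tespa1+/+ libraries (263 to 275 CPM) were the highest and did not overlap any other group, and the other 9 libraries lay between 200 and 228 CPM. The genotype difference without treatment was -0.38 ± 0.05 on the log2 scale (± SE; adjusted p = 0.0031, from the quasi-likelihood test of edgeR with p-values adjusted by Benjamini-Hochberg, as for every adjusted p given here). After 5-FU, Ighm in Tespa1+/+ LSKs was lower by a log2 difference of -0.31 ± 0.06 (adjusted p = 0.0139). Without Tespa1+/+ 5-FU library 2 or 3 that adjusted p was 0.0650 or 0.0557. In Tespa1-/- LSKs the 5-FU difference was 0.05 ± 0.05 (adjusted p = 0.469). All of these were under the 1.5-fold change that a call required, a fold change above 1.5 together with an adjusted p under 0.05.

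Igkc, the constant gene of the kappa light chain, differed far more between groups than Ighm. It had 1332, 1200 and 1315 counts in untreated Tespa1+/+, 495, 549 and 559 in untreated Tespa1-/-, 502, 382 and 363 in 5-FU-treated Tespa1+/+ and 1447, 1398 and 1047 in 5-FU-treated Tespa1-/- LSKs. The groups fell into a high pair, untreated Tespa1+/+ and 5-FU-treated Tespa1-/- (47.3 to 59.6 CPM), and a low pair (14.7 to 24.4 CPM), with no overlap between the pairs. Igkc was lower in untreated Tespa1-/- than in untreated Tespa1+/+ LSKs, with a log2 fold change of -1.18 ± 0.11 (adjusted p = 0.00066). After 5-FU the direction was the opposite, 1.64 ± 0.14 higher in Tespa1-/- LSKs (adjusted p = 0.00010). Igkc thus fell with 5-FU in Tespa1+/+ LSKs (-1.70 ± 0.15, adjusted p = 0.00020) and rose with 5-FU in Tespa1-/- LSKs (1.12 ± 0.09, adjusted p = 7.24e-05). The 5-FU change in Tespa1-/- minus that in Tespa1+/+ LSKs was 2.83 ± 0.18 (adjusted p = 1.51e-06).

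**Figure D1:**
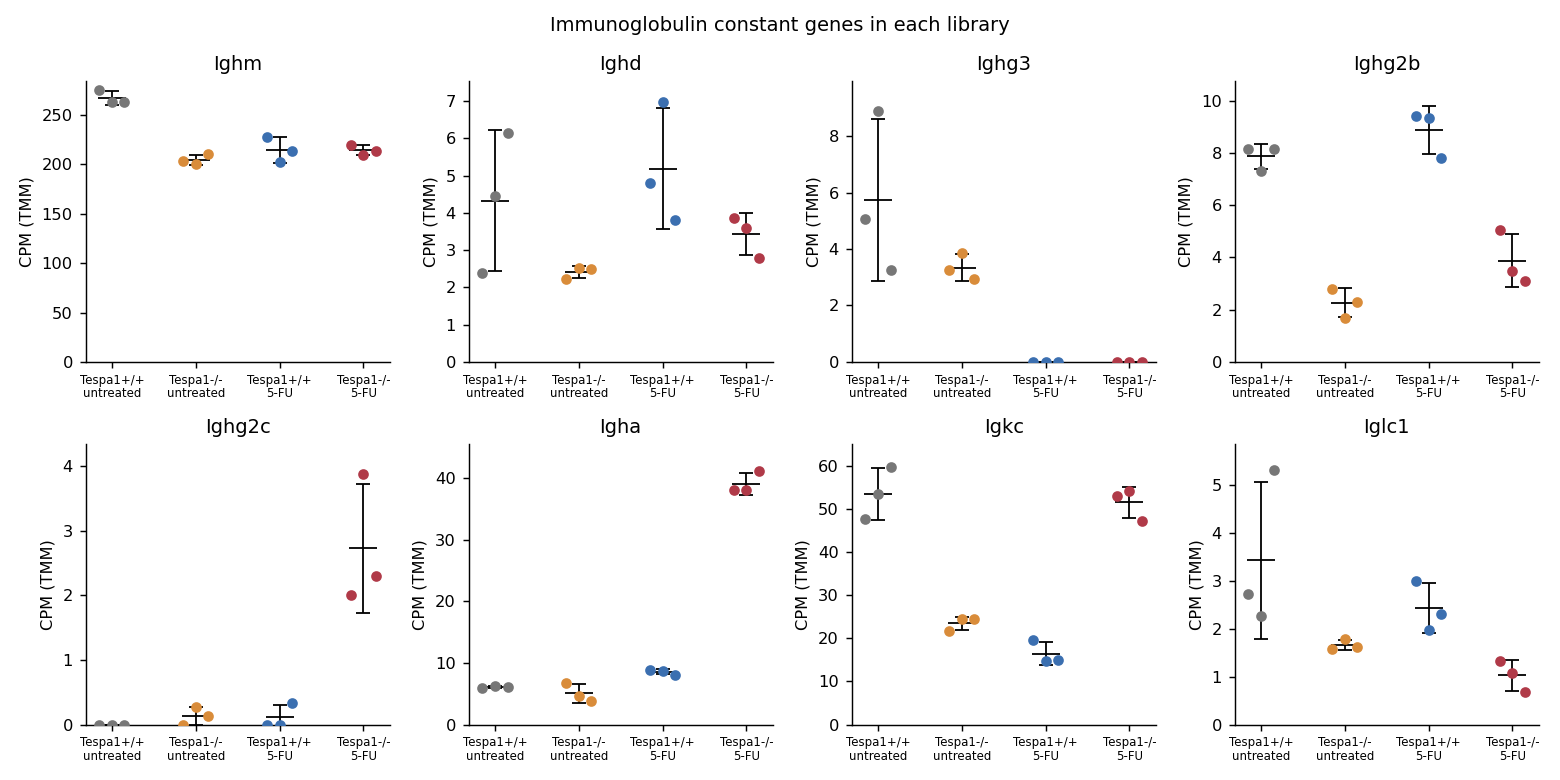
CPM of the immunoglobulin constant genes in each of the 12 libraries, by group, with the group means. Igkc is high in untreated Tespa1+/+ and 5-FU-treated Tespa1-/- LSKs (47.3 to 59.6 CPM), Igha is highest in 5-FU-treated Tespa1-/- LSKs (38.0 to 41.1 CPM) and Ighg3 is at 0 in all 6 libraries after 5-FU.

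Per length, Igkc and Ighm were closest in level in the groups where Igkc was high. On the FPKM scale (fragments scaled by transcript length and library size) given by the authors, Igkc was at 88.6 to 110 and Ighm at 117 to 123 in untreated Tespa1+/+ LSKs. In 5-FU-treated Tespa1-/- LSKs the FPKM were 89.0 to 101 for Igkc and 94.2 to 98.7 for Ighm. In untreated Tespa1-/- LSKs they were 40.7 to 45.7 for Igkc and 89.96 to 93.9 for Ighm, and in 5-FU-treated Tespa1+/+ LSKs 28.3 to 37.4 and 93.2 to 104.

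The lambda constant genes did not follow Igkc. Iglc1 had 76, 51 and 117 counts in untreated Tespa1+/+, 36, 40 and 37 in untreated Tespa1-/-, 77, 51 and 56 in 5-FU-treated Tespa1+/+ and 36, 28 and 15 in 5-FU-treated Tespa1-/- LSKs. Iglc2 had 51, 29 and 36, then 41, 57 and 39, then 53, 82 and 30, and then 24, 11 and 21 counts in the same order of groups. For both genes the 3 lowest CPM belonged to 5-FU-treated Tespa1-/- LSKs. No difference of either gene passed the test. After 5-FU, the log2 difference between Tespa1-/- and Tespa1+/+ LSKs was -1.24 for Iglc1 (adjusted p = 0.109) and -1.52 for Iglc2 (adjusted p = 0.112). With all 12 libraries in the fit the adjusted p of Iglc2 was 0.0387. The 5-FU difference of Iglc2 in Tespa1-/- LSKs was -1.43 (adjusted p = 0.0565), and the adjusted p was 0.0436 with DESeq2 and 0.0250 with at least 10 counts required in every library.

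As a share of all light chain constant counts, lambda took 8.70%, 6.25% and 10.4% in untreated Tespa1+/+ LSKs and 13.5%, 15.02% and 11.97% in untreated Tespa1-/- LSKs. After 5-FU it took 20.6%, 25.8% and 19.2% in Tespa1+/+ and 3.98%, 2.71% and 3.32% in Tespa1-/- LSKs. None of the 4 groups overlapped in this share, which was highest in 5-FU-treated Tespa1+/+ and lowest in 5-FU-treated Tespa1-/- LSKs. An exact permutation test over all 4 groups, run after the values were seen, gave p = 6.49e-05. This is the smallest p that the test can give and follows from groups that do not overlap, so it adds no evidence. For each of the 6 pairs of groups the two-sided exact p was 0.1, also after adjustment over the 6, which is the smallest that 3 against 3 libraries can give. Reads can be exchanged between Iglc2 and Iglc3 (96.5% identical in coding sequence) and between Iglv1 and Iglv2 (96.9%), while Iglc1 and Iglc2 are 74.8% identical.

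The heavy C genes lie on the minus strand of chromosome 12 in the order Ighm, Ighd, Ighg3, Ighg1, Ighg2b, Ighg2c and Igha, from 113422730 down to 113254830. Among them, 4 encode IgG subclasses of similar sequence, so the first 90 coding bases of each are printed, 5′ to 3′, from the same annotation. Capitals mark the bases that differ from Ighg2b, whose own line has none.
Ighg2b: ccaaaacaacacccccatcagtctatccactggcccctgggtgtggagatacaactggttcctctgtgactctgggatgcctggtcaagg
Ighg2c: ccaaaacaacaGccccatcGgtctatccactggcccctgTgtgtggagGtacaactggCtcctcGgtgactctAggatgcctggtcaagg
Ighg3: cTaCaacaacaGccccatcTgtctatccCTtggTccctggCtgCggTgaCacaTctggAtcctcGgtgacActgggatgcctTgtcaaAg
Ighg1: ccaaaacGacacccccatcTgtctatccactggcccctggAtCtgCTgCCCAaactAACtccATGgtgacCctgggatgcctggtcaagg

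Over the coding sequence, Ighg2c is 87.8%, Ighg3 79.0% and Ighg1 78.9% identical to Ighg2b. The 4 IgG genes did not move together.

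Igha, the constant gene of IgA, set 5-FU-treated Tespa1-/- LSKs apart from the other groups. It had 166, 140 and 134 counts in untreated Tespa1+/+, 153, 105 and 87 in untreated Tespa1-/-, 227, 226 and 196 in 5-FU-treated Tespa1+/+ and 1040, 983 and 910 in 5-FU-treated Tespa1-/- LSKs. The last group stood at 38.0 to 41.1 CPM, with no other library above 8.85 CPM. The rise with 5-FU in Tespa1-/- LSKs was 2.94 ± 0.20 on the log2 scale (adjusted p = 2.20e-05), against 0.50 ± 0.20 in Tespa1+/+ LSKs (adjusted p = 0.188), and the difference between these changes was 2.45 ± 0.26 (adjusted p = 0.000127). After 5-FU Igha was higher in Tespa1-/- than in Tespa1+/+ LSKs by 2.19 ± 0.13 (adjusted p = 8.97e-06), whereas untreated LSKs differed by -0.26 ± 0.24 (adjusted p = 0.641).

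Ighg2b was the IgG gene with counts in every library. It had 229, 165 and 180 counts in untreated Tespa1+/+ and 64, 38 and 53 in untreated Tespa1-/- LSKs. After 5-FU it had 242, 243 and 189 counts in Tespa1+/+ and 138, 90 and 69 in Tespa1-/- LSKs. All 6 Tespa1+/+ libraries (7.33 to 9.44 CPM) lay above all 6 Tespa1-/- libraries (1.69 to 5.05 CPM). The genotype difference was -1.79 ± 0.24 in untreated LSKs (adjusted p = 0.0045) and -1.19 ± 0.25 after 5-FU (adjusted p = 0.0138). The second of these was lost, with adjusted p of 0.0502, 0.0573 and 0.0560, without Tespa1+/+ 5-FU library 2, Tespa1-/- 5-FU library 2 or Tespa1-/- 5-FU library 3. Neither 5-FU difference passed the test, at 0.17 ± 0.20 in Tespa1+/+ (adjusted p = 0.688) and 0.76 ± 0.31 in Tespa1-/- LSKs (adjusted p = 0.124).

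Ighg3 was counted only without treatment. Untreated Tespa1+/+ LSKs had 142, 200 and 72 counts and untreated Tespa1-/- LSKs 74, 87 and 67, while all 6 libraries after 5-FU had 0. Set against the limit that a count of 0 allows, 3 counts per library, it was at least 48.3-fold lower after 5-FU in Tespa1+/+ and at least 27.8-fold lower in Tespa1-/- LSKs. The untreated genotypes differed by -0.78 on the log2 scale (adjusted p = 0.304).

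Ighg2c ran the other way. It had 55, 100 and 51 counts in 5-FU-treated Tespa1-/- LSKs, and in the other 9 libraries its counts were 0 except for 6 and 3 in untreated Tespa1-/- libraries 2 and 3 and 8 in 5-FU-treated Tespa1+/+ library 3. Ighg1 had 9 counts in 1 untreated Tespa1+/+ library, 16 in 1 untreated Tespa1-/- library and 0 in the other 10. Ighd, the constant gene of IgD, had 67, 100 and 136 counts in untreated Tespa1+/+, 51, 57 and 57 in untreated Tespa1-/-, 123, 181 and 92 in 5-FU-treated Tespa1+/+ and 106, 93 and 62 in 5-FU-treated Tespa1-/- LSKs. Its genotype differences of -0.83 without treatment (adjusted p = 0.261) and -0.60 after 5-FU (adjusted p = 0.250) did not pass the test.

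The 5 class-switched constant members (Igha and the IgG genes) summed to 19.8 ± 2.495 CPM (SD, n = 3) in untreated Tespa1+/+, 11.0 ± 1.81 in untreated Tespa1-/-, 17.5 ± 1.13 in 5-FU-treated Tespa1+/+ and 45.7 ± 0.740 in 5-FU-treated Tespa1-/- LSKs. The J members Ighj1, Ighj2 and Ighj4 stayed between 0.0714 and 0.930 CPM in every library, with overlap between all groups. No D gene had more than 7 counts, and no kappa or lambda J gene more than 6.

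Jchain, which is not a member but encodes the peptide that joins IgM and IgA into polymers, had the pattern of Igkc. It had 358, 322 and 423 counts in untreated Tespa1+/+, 98, 153 and 185 in untreated Tespa1-/-, 154, 96 and 124 in 5-FU-treated Tespa1+/+ and 488, 300 and 335 in 5-FU-treated Tespa1-/- LSKs. With 5-FU its log2 fold change was -1.64 ± 0.25 in Tespa1+/+ (adjusted p = 0.0045) and 1.21 ± 0.26 in Tespa1-/- LSKs (adjusted p = 0.0112), a difference of 2.86 ± 0.38 (adjusted p = 0.00075). The genotype difference was 1.58 ± 0.25 after 5-FU (adjusted p = 0.0031) and -1.27 ± 0.26 without treatment (adjusted p = 0.0295). Leaving out either of untreated Tespa1+/+ libraries 2 and 3, or any of the 3 untreated Tespa1-/- libraries, raised the last adjusted p to between 0.0546 and 0.118.

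The V genes together followed the same order of groups as Igkc. The 97 V members summed to 53.3 ± 6.52 CPM (SD, n = 3) in untreated Tespa1+/+, 28.2 ± 3.46 in untreated Tespa1-/-, 22.4 ± 4.58 in 5-FU-treated Tespa1+/+ and 51.4 ± 6.73 in 5-FU-treated Tespa1-/- LSKs. Heavy V genes summed to 20.9, 14.05, 12.1 and 26.2 CPM on average in these groups, and kappa V genes to 29.5, 12.4, 8.10 and 24.5 CPM. Lambda V genes were lowest in 5-FU-treated Tespa1-/- LSKs, at 0.726 CPM against 1.75 to 2.84 CPM in the other groups.

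Kappa V and C genes were nearer to each other in level than heavy V and C genes. Summed heavy V FPKM was 31.6 to 46.6% of summed heavy C FPKM in untreated Tespa1+/+, 29.4 to 32.6% in untreated Tespa1-/-, 18.1 to 30.9% in 5-FU-treated Tespa1+/+ and 46.3 to 60.7% in 5-FU-treated Tespa1-/- LSKs. For kappa the V share was 54.6 to 83.5%, 53.3 to 73.7%, 35.3 to 89.3% and 58.5 to 71.1% of C, with overlap between all 4 groups.

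**Figure D2:**
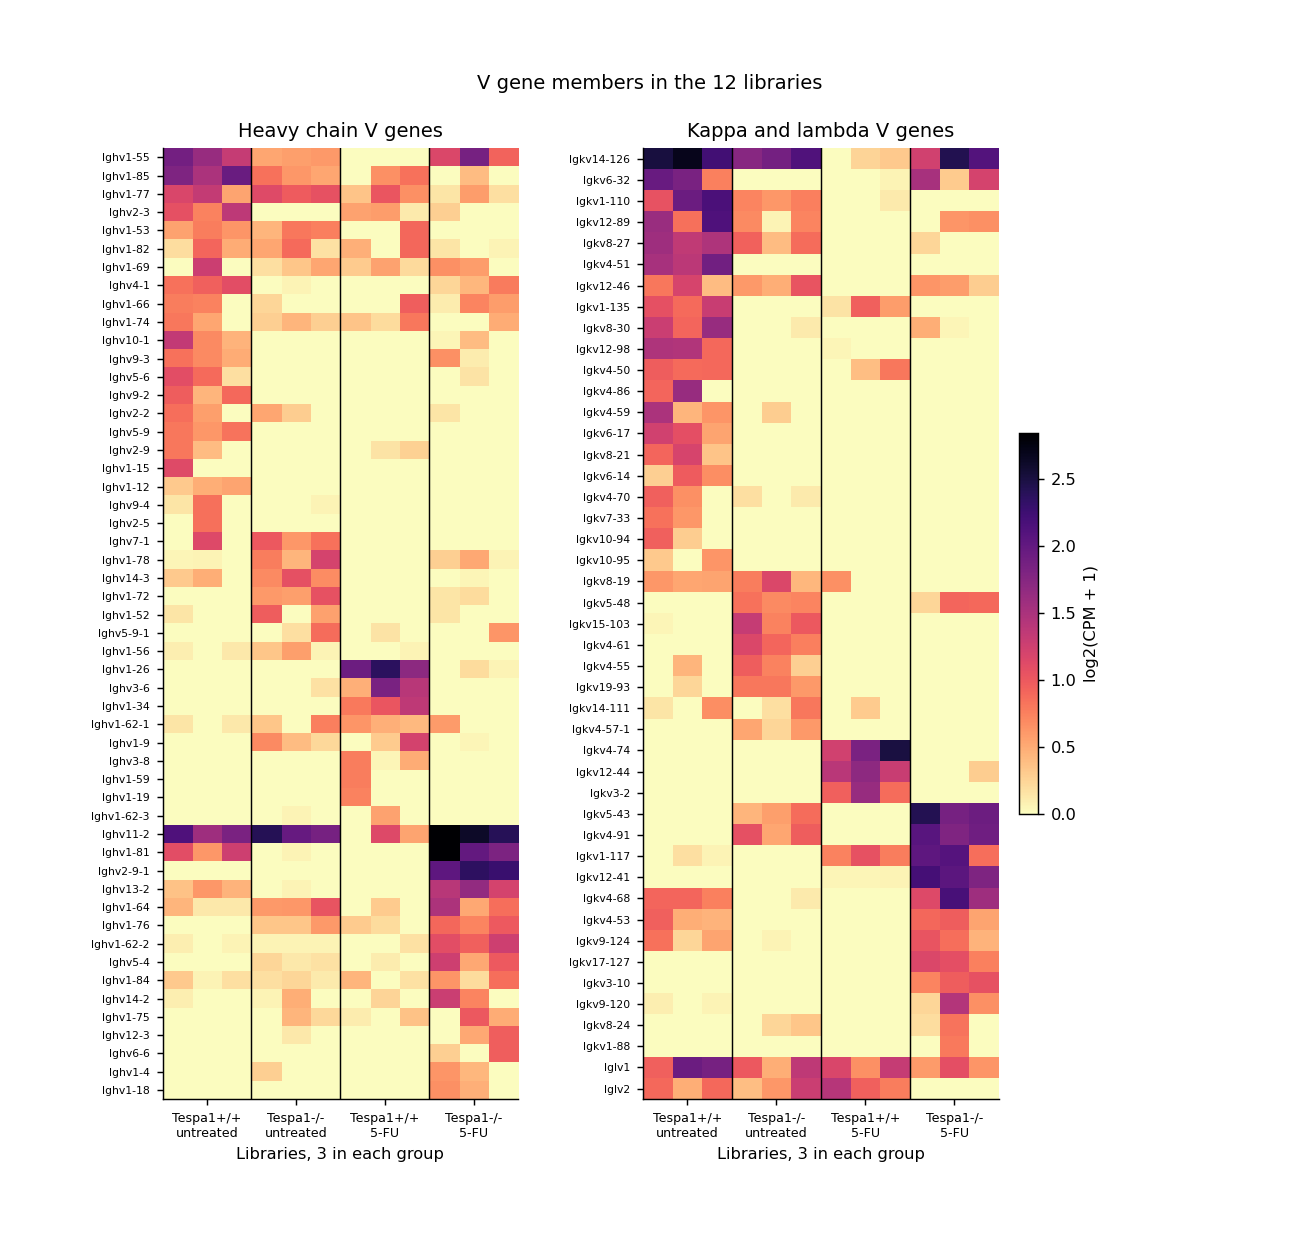
Counts of V members (rows) in the 12 libraries (columns, by group), on a log2(CPM + 1) colour scale. Rows are ordered within each chain by the group that held most counts of the gene, so blocks along the groups follow from this order. Of the 97 V members, 41 had at least 90% of their counts in 1 group, and 69 had a count in all 3 libraries of their top group.

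Single V genes were far more group-bound than their sums. Of the V genes with at least 10 counts in a library, a median of 92.9% (range 70.0 to 100%, 24 ordered pairs of libraries) had a count in another library of the same group, against 45.0% (14.8 to 70.4%, 108 ordered pairs) in a library of another group. Genes outside the immunoglobulin loci in the same range of counts, 10 to 169, gave 92.4% and 91.1%. Libraries of the same genotype under the other treatment shared 49.1%, those of the other genotype under the same treatment 41.5%, and those that differed in both 41.9%. Pearson's r of log2(CPM + 1) over the 97 V members was 0.704 to 0.864 within groups (12 pairs of libraries) and -0.196 to 0.322 between groups (54 pairs). These correlations are across genes that share reads and are given as a description.

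**Figure D3:**
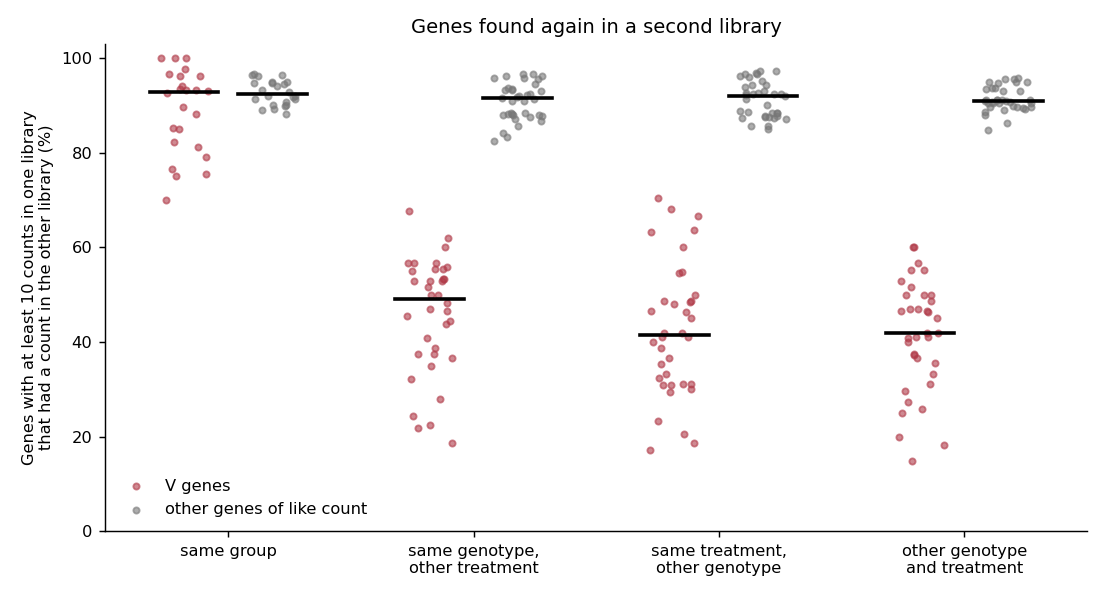
Percentage of the V genes with at least 10 counts in a library that had a count in a second library, for pairs of the same group and of different groups, beside the same percentage for other genes of like count. Same-group V pairs have a median of 92.9% and different-group pairs 45.0%, while other genes are at 92.4% and 91.1%.

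Of the 97 V members, 16 (16.5%) had counts in all 3 libraries of 1 group and 0 counts in all 9 others. Among other genes of like count this held for 96 of 12314 (0.780%), of which 73 were in untreated Tespa1-/- LSKs, the group in which the most genes of any kind had a count (27219 to 29523, against 21141 to 24745 elsewhere). Only 2 of the 16 V genes were in that group. The number of V members with at least 10 counts in a library of 1, 2, 3 or all 4 groups was 55, 26, 12 and 4. This split uses the threshold that chose the members and is given without that of other genes, so nothing is read from it.

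Untreated Tespa1+/+ LSKs held 7 of the 16. Igkv4-51 had 52, 36 and 60 counts there, Igkv6-17 had 38, 25 and 10, Igkv8-21 had 25, 29 and 6, Ighv9-2 had 27, 8 and 19, Ighv5-9 had 21, 12 and 17, Igkv6-14 had 6, 22 and 13, and Ighv1-12 had 7, 9 and 10. They span 3 heavy and 2 kappa families besides Igkv4, and Igkv4-51 was the most counted of them. The 2 of untreated Tespa1-/- LSKs were both of the Igkv4 family, Igkv4-61 with 28, 20 and 16 counts and Igkv4-57-1 with 10, 4 and 12.

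After 5-FU, Tespa1+/+ LSKs held 4 of the 16. They were Igkv4-74 (35, 66 and 113 counts), Igkv3-2 (24, 54 and 20), Ighv1-34 (19, 27 and 38) and Ighv3-8 (18, 1 and 10). The leading heavy V gene of this group, Ighv1-26, had 72, 108 and 55 counts there, 0 in all untreated libraries, and 0, 4 and 1 in 5-FU-treated Tespa1-/- LSKs. Igkv12-44 likewise had 42, 58 and 35 counts there, 0 in all untreated libraries and 0, 0 and 5 in the other 5-FU group. Ighv3-6 had 10, 67 and 40 counts there and at most 3 counts in any other library.

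Tespa1-/- LSKs after 5-FU held the remaining 3, Ighv2-9-1 (84, 107 and 86 counts), Igkv17-127 (34, 29 and 15) and Igkv3-10 (18, 25 and 24). Igkv12-41 had 99, 81 and 55 counts in this group, 1 in each 5-FU-treated Tespa1+/+ library and 0 without treatment. With 0 counts in a group, these differences are set by the group where the gene is high, and no fitted size or test is read from them.

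V genes found in 2 groups are listed by pair of groups as a description. The same split among other genes is not given, so nothing is read from its unevenness. Of the 26 V members with at least 10 counts in a library of exactly 2 groups, 9 were in untreated Tespa1+/+ and 5-FU-treated Tespa1-/- LSKs, the pair of groups with most V counts. Another 6 were in both Tespa1-/- groups, 5 in both untreated groups, 4 in both Tespa1+/+ groups and 1 in each of the other 2 pairs. Ighv1-81 was the most counted of the 9, with 32, 12 and 31 counts in untreated Tespa1+/+ and 169, 77 and 56 in 5-FU-treated Tespa1-/- LSKs, against 1 count in the other 6 libraries together. Igkv6-32 had 81, 58 and 15, and 51, 6 and 29 counts in the same groups, and 1 count elsewhere. Igkv4-68 had 25, 20 and 15, and 33, 91 and 44 counts, and 2 elsewhere.

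Several V genes were counted in 1 genotype or 1 treatment only. In both Tespa1-/- groups and in no Tespa1+/+ library there were 7 V members, and in both Tespa1+/+ groups and no Tespa1-/- library there were 4. By treatment, 7 were in both untreated groups and no 5-FU library, and 3 in both 5-FU groups and no untreated library. In this order these were 7.22%, 4.12%, 7.22% and 3.09% of the V members. Of the 12314 other genes in the same range of highest count, not matched further in count, they were 1.75%, 0.552%, 3.23% and 0.552%. Igkv5-43 had 8, 11 and 19 counts in untreated and 120, 68 and 62 in 5-FU-treated Tespa1-/- LSKs, a log2 rise of 2.54 ± 0.43 (adjusted p = 0.0040). Igkv4-91, the light chain partner of Ighv12-3, had 25, 10 and 22, and then 88, 64 and 61 counts, a rise of 1.74 ± 0.41 (adjusted p = 0.0175). That adjusted p was 0.0849 with all 12 libraries in the fit and 0.0527 without Tespa1-/- 5-FU library 1. Igkv1-135, the most counted of the 4 genes found only in Tespa1+/+ LSKs, had 31, 19 and 32 counts without treatment and 3, 24 and 12 after 5-FU.

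The V genes with the most counts over all libraries were those of 1 of the B-1 cell pairs, Ighv11-2 and Igkv14-126. Ighv11-2 had 95, 45 and 56 counts in untreated Tespa1+/+, 99, 66 and 60 in untreated Tespa1-/-, 0, 31 and 11 in 5-FU-treated Tespa1+/+ and 169, 134 and 95 in 5-FU-treated Tespa1-/- LSKs, and it alone led the heavy chain in 6 of the 12 libraries. In 5-FU-treated Tespa1-/- library 1 it was level with Ighv1-81, each with 169 counts. Its partner Igkv14-126 had 132, 123 and 81, then 53, 60 and 77, then 0, 5 and 6, and then 37, 114 and 73 counts in the same order of groups. Both genes were lowest in the 5-FU-treated Tespa1+/+ libraries, without overlap with another group.

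After 5-FU, Ighv11-2 was higher in Tespa1-/- than in Tespa1+/+ LSKs by 3.23 ± 0.83 on the log2 scale (adjusted p = 0.0327). This did not hold with the replicate number as a block (adjusted p = 0.0554), nor without Tespa1+/+ 5-FU library 3 (0.0994) or any of the 3 Tespa1-/- 5-FU libraries (0.0713 to 0.104). The 5-FU change of Ighv11-2 in Tespa1-/- minus that in Tespa1+/+ LSKs was 2.91 ± 0.95 (adjusted p = 0.105). Igkv14-126 was under 10 counts in each 5-FU-treated Tespa1+/+ library, and no test against that group is read. Without treatment neither gene differed past the test between genotypes, at 0.32 for Ighv11-2 (adjusted p = 0.673) and -0.73 for Igkv14-126 (adjusted p = 0.190).

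The other B-1 pair had fewer counts. Ighv12-3 had 11 and 21 counts in 5-FU-treated Tespa1-/- libraries 2 and 3, 2 in 1 untreated Tespa1-/- library and 0 in the other 9. Igkv4-91 and Ighv12-3 were thus both at 0 in all 6 Tespa1+/+ libraries. Whether the paired genes were transcribed in the same cells cannot be told from bulk libraries.

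**Figure D4:**
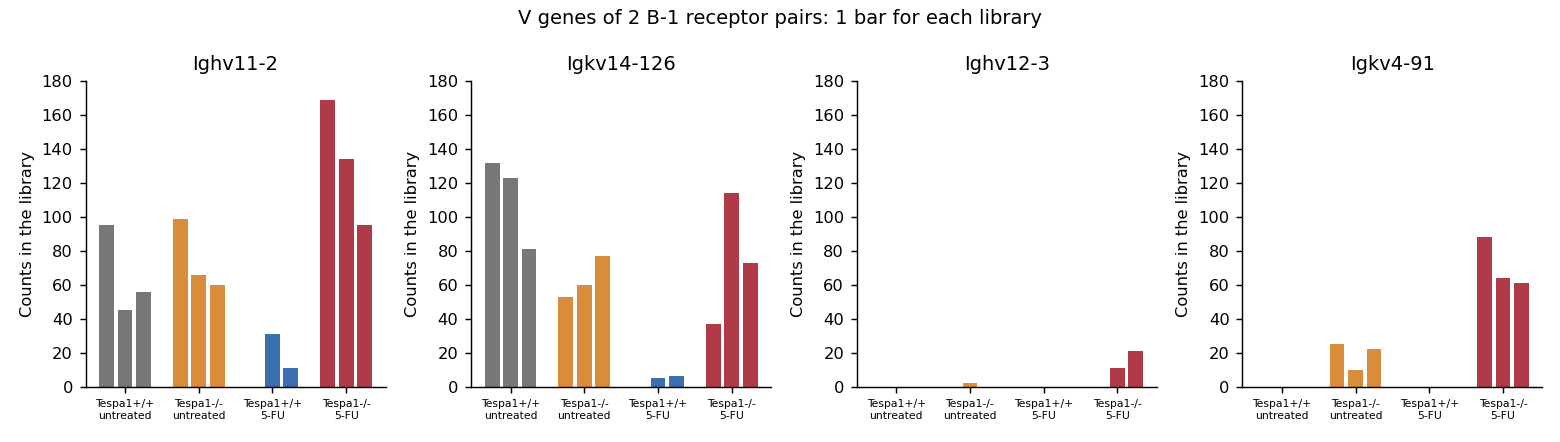
Counts of the heavy and light V genes of the known B-1 receptor pairs in each library. Ighv11-2 and Igkv14-126 are lowest in 5-FU-treated Tespa1+/+ LSKs (0 to 31 and 0 to 6 counts), and Igkv4-91 and Ighv12-3 have counts only in Tespa1-/- libraries.

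Of the other leading V genes of untreated LSKs, Ighv1-55 and Ighv1-85 were lower in Tespa1-/- LSKs, with calls that were lost when almost any library was left out. Ighv1-55 had 75, 47 and 33 counts in untreated Tespa1+/+ and 10, 11 and 12 in untreated Tespa1-/- LSKs, a log2 difference of -2.10 ± 0.44 (adjusted p = 0.0319). Ighv1-85 had 70, 41 and 63, and 18, 12 and 10 counts, a difference of -2.02 ± 0.43 (adjusted p = 0.0344). In both genes the groups did not overlap. Leaving out any 1 of the 6 libraries except, for Ighv1-55, Tespa1+/+ library 3 moved the adjusted p past 0.05, and over all the alternatives run it reached 0.140 for Ighv1-55 and 0.386 for Ighv1-85. After 5-FU, Ighv1-55 had 0 counts in all Tespa1+/+ and 34, 68 and 20 in Tespa1-/- LSKs. Ighv1-77 was 1 of 2 V genes with a count in all 12 libraries, at 3 to 35 counts, and its untreated genotype difference was 0.017 (adjusted p = 0.994). Igkv1-110, with 30, 64 and 77 counts in untreated Tespa1+/+ and 15, 12 and 16 in untreated Tespa1-/- LSKs, had 2 counts in the 6 libraries after 5-FU together, and its untreated genotype difference of -1.95 did not pass the test (adjusted p = 0.0770, and 0.0195 to 0.248 over the alternatives run). Igkv12-89 had 58, 18 and 75, and 14, 1 and 15 counts in the untreated groups, 0 after 5-FU in Tespa1+/+ and 0, 14 and 13 in Tespa1-/- LSKs, and its untreated genotype difference of -2.24 did not pass either (adjusted p = 0.193).

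The shares of V families are given over the counts of the V members of a chain, as a description. Ighv1, the largest heavy family, took 48.6 to 49.7% of heavy V member counts in untreated Tespa1+/+ and 55.5 to 64.1% in untreated Tespa1-/- LSKs. After 5-FU it took 64.9 to 82.4% in Tespa1+/+ and 39.8 to 49.4% in Tespa1-/- LSKs. Ighv3 took 12.3 to 19.1% in 5-FU-treated Tespa1+/+ LSKs and at most 0.912% in any other library. Ighv9 took 7.48 to 8.16% in untreated Tespa1+/+ LSKs and at most 1.96% elsewhere. Of kappa V counts, Igkv5 took 0% in both Tespa1+/+ groups, 8.78 to 10.9% in untreated and 12.3 to 18.9% in 5-FU-treated Tespa1-/- LSKs.

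The lambda V genes were few and overlapped between most groups. Iglv1 had 9 to 64 counts over the 12 libraries. Iglv2 had 24, 9 and 19, then 7, 12 and 33, then 43, 24 and 17 counts, and 0 in all 3 libraries of 5-FU-treated Tespa1-/- LSKs.

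V genes with any count numbered 67, 62 and 49 in untreated Tespa1+/+, 64, 54 and 62 in untreated Tespa1-/-, 29, 39 and 34 in 5-FU-treated Tespa1+/+ and 53, 56 and 46 in 5-FU-treated Tespa1-/- LSKs. These numbers move with the V counts of a library, so each was also computed as the number expected at 454 V counts, the lowest total. At that depth they were 58.0, 56.6 and 45.4, then 60.2, 52.2 and 57.6, then 29.0, 37.5 and 33.0, and then 45.5, 48.7 and 42.2. The 5-FU-treated Tespa1+/+ libraries had the fewest V genes at either depth, without overlap with another group.

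Calls over the members are given beside those over all genes tested. The rule chose members by their counts in these same libraries, and most called V genes were at or near 0 in 1 of the groups compared, so nothing is read from the excess. Between untreated genotypes, 5 members of 42 tested were called higher and 16 lower in Tespa1-/- LSKs, against 0.973% and 1.54% of all genes tested. Between genotypes after 5-FU, 18 of 39 were higher and 8 lower in Tespa1-/- LSKs, against 3.95% and 3.03%. With 5-FU in Tespa1+/+ LSKs, 5 of 42 were higher and 16 lower, against 2.74% and 1.69%. With 5-FU in Tespa1-/- LSKs, 15 of 40 were higher and 7 lower, against 6% and 4.07%. For the difference between the 5-FU changes, 14 of 69 were higher and 1 lower in Tespa1-/- LSKs, against 1.66% and 1.55%. These comparisons share libraries with each other. Among members with at least 10 counts in a library of each group compared, the calls were 0 higher and 4 lower of 23, 3 and 1 of 15, 0 and 1 of 21, 4 and 0 of 21, and 2 and 0 of 13, in the same order.

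**Figure D5:**
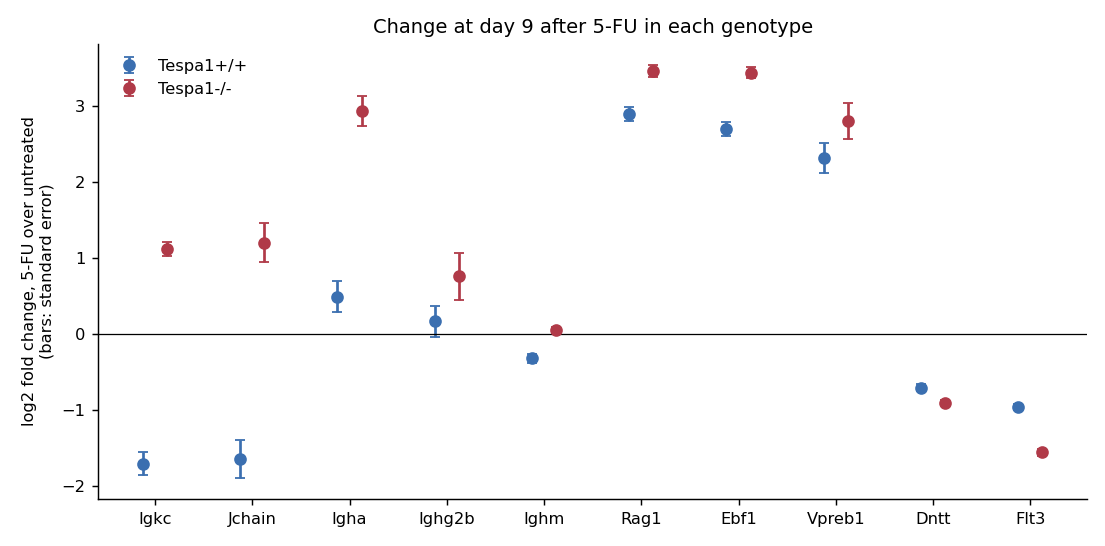
Log2 fold change with 5-FU, with SE, in Tespa1+/+ and in Tespa1-/- LSKs for constant genes, Jchain and B-cell precursor genes. Igkc and Jchain lie below 0 in Tespa1+/+ (-1.70 and -1.64) and above 0 in Tespa1-/- LSKs (1.12 and 1.21), while in both genotypes Rag1, Ebf1 and Vpreb1 lie above 0 and Dntt and Flt3 below it.

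Genes of the B lineage that are not members did not all follow Igkc. Rag1, a subunit of the recombinase, rose with 5-FU by 2.90 ± 0.09 on the log2 scale in Tespa1+/+ (adjusted p = 9.12e-07) and by 3.47 ± 0.08 in Tespa1-/- LSKs (adjusted p = 4.66e-08). Ebf1, a transcription factor of early B cells, rose by 2.70 ± 0.09 and 3.44 ± 0.08, and Vpreb1, a surrogate light chain gene, by 2.32 ± 0.20 and 2.81 ± 0.23 (adjusted p at most 0.000169). Other precursor genes fell in both genotypes. Dntt, the polymerase that adds bases at V-D-J joins, changed by -0.70 ± 0.04 in Tespa1+/+ and by -0.90 ± 0.03 in Tespa1-/- LSKs, and Flt3, a cytokine receptor of early progenitors, by -0.96 ± 0.04 and -1.55 ± 0.04 (adjusted p at most 1.95e-05). Sox4 and Cd93 passed both the test and the fold limit of 1.5 in Tespa1-/- LSKs, at -0.65 ± 0.05 and -0.68 ± 0.04 (adjusted p at most 2.75e-05). The 3 genes that rose were chosen after their values were seen, and the 4 that fell are all those of the list.

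The lists of B-lineage genes are counted over the genes that could be tested in each comparison, beside all genes tested. Of all genes, 2.74% rose and 1.69% fell with 5-FU in Tespa1+/+ LSKs and 6% rose and 4.07% fell in Tespa1-/- LSKs. Between genotypes, 0.973% of all genes were higher and 1.54% lower in untreated Tespa1-/- LSKs, and 3.95% and 3.03% after 5-FU. Of 15 B-cell precursor genes tested, of 16 listed, 7 rose and 2 fell with 5-FU in Tespa1+/+ LSKs and 9 rose and 4 fell in Tespa1-/- LSKs, with a median log2 change of 0.79 and 2.72 against 0.014 and -0.0094 over all genes. Between genotypes 1 was lower in Tespa1-/- LSKs without treatment and 1 after 5-FU. Their summed level was lower after 5-FU in both genotypes, unlike the median, at 2397 to 2428 CPM in untreated and 1977 to 2001 CPM in 5-FU-treated Tespa1+/+ LSKs. In Tespa1-/- LSKs it was 2077 to 2122 CPM untreated and 1577 to 1597 CPM after 5-FU. Dntt, Flt3, Sox4 and Cd93 made up most of that sum in every group. Of the 16 mature B-cell genes, 6 of 12 tested rose and 0 fell in Tespa1+/+ and 8 of 14 rose and 1 fell in Tespa1-/- LSKs with 5-FU, and between genotypes 2 of 11 were lower untreated, and 3 of 13 higher and 1 lower after 5-FU, in Tespa1-/- LSKs. Their median log2 change with 5-FU was 0.96 in Tespa1+/+ and 1.23 in Tespa1-/- LSKs. Summed, the mature B-cell genes stood at 120 to 139, 101 to 111, 219 to 234 and 269 to 283 CPM in the 4 groups. Of 15 tested genes of rearrangement and class switching, 1 rose and 1 fell in Tespa1+/+ and 3 rose and 1 fell in Tespa1-/- LSKs with 5-FU, and 0 differed between genotypes. Of 16 genes of immunoglobulin transcription, 5 rose and 0 fell in Tespa1+/+ and 7 rose and 1 fell in Tespa1-/- LSKs with 5-FU, and between genotypes 2 were lower untreated and 3 higher after 5-FU in Tespa1-/- LSKs.

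Of the 16 plasma cell genes, Jchain included, 4 of 15 tested rose and 2 fell with 5-FU in Tespa1+/+ LSKs. In Tespa1-/- LSKs 7 of 14 rose and 1 fell with 5-FU. Between genotypes 2 of 14 were lower untreated and 5 of 15 higher after 5-FU in Tespa1-/- LSKs. The matching shares over all genes tested were 2.74% and 1.69%, then 6% and 4.07%, then 1.54% and 3.95%. The median log2 change of the plasma cell genes with 5-FU was -0.083 in Tespa1+/+ and 0.97 in Tespa1-/- LSKs. Their sum was 336 to 350, 333 to 357 and 337 to 375 CPM in the first 3 groups and 453 to 490 CPM in 5-FU-treated Tespa1-/- LSKs. Tnfrsf17, a receptor of plasma cells, had at most 10 counts in any library. Of the mature B-cell genes, Ms4a1 had at most 38, Cr2 at most 9 and Fcer2a at most 13 counts. These genes were named singly and do not stand for the lists. In 5-FU-treated Tespa1-/- LSKs the plasma cell list summed to 453 to 490 CPM and the mature B-cell list to 269 to 283 CPM. The part of the listed genes in the immunoglobulin counts was not tested.

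Genes of other cell types also moved with the groups, most of all in 5-FU-treated Tespa1-/- LSKs. In 5-FU-treated Tespa1-/- LSKs the 12 neutrophil genes summed to 1084 to 1086 CPM, against 0.770 to 9.01 CPM in the other 9 libraries, and the 12 erythroid genes to 583 to 594 CPM. The erythroid sum was 27.4 to 39.0 CPM in untreated Tespa1+/+, 65.5 to 75.4 in untreated Tespa1-/- and 70.7 to 95.4 in 5-FU-treated Tespa1+/+ LSKs. Of the erythroid genes tested, 2 of 10 were higher in untreated Tespa1-/- LSKs and 5 of 9 rose with 5-FU in Tespa1+/+ LSKs. After 5-FU, 11 of 12 neutrophil and 12 of 12 erythroid genes tested were higher in Tespa1-/- LSKs. Over all genes tested, 0.973% were higher in untreated Tespa1-/- LSKs and 2.74% rose with 5-FU in Tespa1+/+ LSKs. After 5-FU, 3.95% of all genes tested were higher and 3.03% lower in Tespa1-/- LSKs. The 12 LSK genes summed to 1046 to 1151 CPM in that group and to 1570 to 1928 CPM in the others, with 7 lower in Tespa1-/- LSKs after 5-FU. The 12 T-cell genes summed to 38.8 to 44.0 CPM in the untreated libraries of both genotypes and to 22.8 to 25.4 CPM in 5-FU-treated Tespa1+/+ and 26.2 to 34.5 CPM in 5-FU-treated Tespa1-/- LSKs, and 3 of 11 tested were higher in Tespa1-/- LSKs after 5-FU. The part of these genes in the high Igha, Igkc and V counts of 5-FU-treated Tespa1-/- LSKs was not tested. Tespa1 itself had 43.0 to 57.5 CPM in the 6 libraries labelled Tespa1+/+ and 17.3 to 34.9 CPM in the 6 labelled Tespa1-/-, with no overlap. The part of the gene that the allele lacks was not analysed here.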

How the data were processed

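RNA-seq was performed on sorted LSKs in 12 libraries, 3 in each of 4 groups set by genotype and 5-FU. The deposited tables hold raw counts per gene and FPKM for each library, both made by the authors. The submitters' processing notes name CASAVA 1.8, HISAT2, StringTie, edgeR and GRCm38, and use of strand in counting is not given in the sources used here. FPKM was used only to compare levels between genes. Totals of 22118154 to 28275079 counts set the limit that a count of 0 allows, 3 counts, at 0.106 to 0.136 CPM, which covers counting error only.

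The members and the gene lists were chosen with earlier results of these data known. Counts were fitted over all genes with edgeR 4.0.16 in R 4.3.3 (filterByExpr, TMM, quasi-likelihood test, Benjamini-Hochberg adjustment), with 6 libraries in each pairwise comparison and all 12 for the difference between 5-FU changes. A call needed an adjusted p under 0.05 and a fold change above 1.5. No member had its p adjusted separately. Named were all C and J members, the V genes leading each chain in a library or group, and the members with the largest called changes. Others, such as the V genes of 1 group only, were chosen after their values were seen. Sequences and identities came from GENCODE M21 (GRCm38), where all 110 members had the same position as in the table, with Biopython 1.88. Alternatives were DESeq2 1.42.0, other filters, library totals, all 12 libraries in 1 fit, the replicate number as a block, and each library left out. Scripts were tested on simulated data. Certain genes are not reported here by name.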

Additional observations from a re-analysis of the deposited data

Results flagged for a closer look

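The difference between the 5-FU change in Tespa1-/- and that in Tespa1+/+ LSKs passed the quasi-likelihood test of edgeR after Benjamini-Hochberg adjustment, with at least 10 counts in a library of every group, for 3 members. On the log2 scale it was 2.83 for Igkc, 2.45 for Igha and 0.38 for Ighm. Igkc fell in Tespa1+/+ and rose in Tespa1-/- LSKs, Igha rose past the test only in Tespa1-/- LSKs, and Ighm was lower after 5-FU in Tespa1+/+ LSKs by less than 1.5-fold. In 13 further members the test passed with a group under 10 counts in each library, and in 12 of these with 1 or more groups at 0 counts, so nothing is read from them. Groups of 3 libraries are too small for a test of single outlying libraries.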

How the results depend on the processing

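The number of called members depended on the filter and on single libraries, and the cause was not tested. In the order untreated genotypes, genotypes after 5-FU, 5-FU in Tespa1+/+, 5-FU in Tespa1-/- and difference of changes, the members called higher were 5, 18, 5, 15 and 14 and those called lower 16, 8, 16, 7 and 1. With at least 10 counts in every library they were 0, 2, 0, 4 and 2 higher and 5, 1, 1, 1 and 0 lower. All 12 libraries in 1 fit gave 3 higher between untreated genotypes. Without a filter 11 members were lower with 5-FU in Tespa1-/- LSKs, and 3 lower in the difference of changes, where an unadjusted p gave 4. Leaving out 1 library at a time gave, in the same order, 0 to 2, 11 to 17, 3 to 6, 15 to 17 and 11 to 14 higher and 4 to 12, 4 to 7, 11 to 12, 7 to 13 and 1 to 2 lower, with the lowest 11 without Tespa1-/- 5-FU library 2 and the lowest 4 after 5-FU without Tespa1+/+ 5-FU library 2. Each of the 6 untreated libraries left out moved the 5 higher calls by over 1.5 times, and so did each for the 16 lower except Tespa1+/+ library 3, which left 12. Each of the 3 Tespa1-/- 5-FU libraries left out raised the 7 lower with 5-FU by over 1.5 times. The replicate numbers did not pair the libraries: deviations of same-numbered libraries correlated at -0.094 to 0.053 over 18 pairs. With the replicate number as a block, 0 members were higher and 2 lower between untreated genotypes, 5 lower after 5-FU, and 3 higher and 10 lower with 5-FU in Tespa1+/+ LSKs.

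Of 64 differences of named genes, 51 kept their direction and their side of the threshold under every alternative run, and 12 crossed the threshold under at least 1. The other, Ighv1-77 between untreated genotypes, lay near 0 and changed sign without passing the test, at -0.00479 without a filter and -0.34 to 0.34 with 1 library left out. The V members found in 1 group only, 16, were 16 to 20 with 1 library left out, an alternative chosen after seeing the data. So were other minimum counts for V genes shared between libraries, which gave 84.1% within and 43.2% between groups at 5 counts and 96.4% and 45.5% at 20. The summed level in untreated Tespa1+/+ LSKs was 399 CPM with library totals, and the 4 group sums ran from 402 to 406, 271 to 278, 276 to 287 and 364 to 376 CPM with 1 library left out.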
